A study of Mus musculus with 8 samples.

Results

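The prostaglandin genes described here are 10 genes chosen by name, 2 cyclooxygenases (Ptgs1 and Ptgs2), 3 terminal synthases (Ptges, Ptgis and Ptgds) and 5 receptors (Ptger2, Ptger3, Ptger4, Ptgfr and Ptgir). Of these, 9 had a probe named for them in the platform annotation, with 14 probes in all, and no probe was named for Ptgs1. A probe was kept if its detection p, the share of negative control beads at least as bright, was under 0.05 on at least 4 of 8 arrays. This kept 8 probes of 6 genes (Ptgs2, Ptges, Ptgis, Ptger2, Ptger3 and Ptgir), out of 18085 kept probes of 10724 genes on the whole array. The cells were adipose progenitors from lean C3H mice aged 3 months. Collagenase-digested epididymal white fat was sorted by flow cytometry for cells without CD45 (a leukocyte protein) or CD31 (an endothelial protein) and with Gp38 (podoplanin) and PDGFRα. These cells were split by surface CD9, a tetraspanin, into CD9high and CD9low fractions, with 4 arrays each. All groups share strain, age, depot and diet label, which is CHOW in the sample titles. The labels do not say whether an array held 1 mouse or a pool. The p-values thus measure the spread between these arrays, which may be technical.

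Prostaglandins are short-lived lipid signals. Phospholipase A2 enzymes free arachidonic acid from membranes, cyclooxygenases turn it into prostaglandin H2, and terminal synthases make from it prostaglandin E2 (Ptges), prostacyclin (Ptgis) or prostaglandin D2 (Ptgds). These act on G protein-coupled receptors of nearby cells, some of which raise and some of which lower cyclic AMP. In adipose tissue, prostaglandin E2 is known to restrain lipolysis, and prostacyclin is known to promote the differentiation of preadipocyte lines.

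Values are normalized log2 intensities, and a difference is CD9high minus CD9low on that scale with its standard error (SE). Between 18618 and 23121 probes per array were above background. Cd9, the sort marker, stood at 8.27 to 8.56 in CD9high and 4.36 to 5.40 in CD9low, which checks the labels and is no finding; it was above background on 2 of 4 CD9low arrays. The progenitor genes Pdgfra and Pdpn were above background on all 8 arrays and differed by 0.10 and -0.05. Genes of the proteins sorted against were not silent. Every array detected Pecam1, the CD31 gene, at 5.10 to 6.72 in CD9high and 5.47 to 7.39 in CD9low. Its difference was -0.40 (SE 0.47, adjusted p = 0.804 in limma). Ptprc, the CD45 gene, was detected by 2 CD9high arrays and 3 CD9low arrays. It differed by -0.18 (SE 0.47, adjusted p = 0.920). One array stood apart: CD9low replicate 2 correlated with the other arrays at 0.788 to 0.872 across genes, whereas the lowest correlation among the other 7 was 0.894. It also held the highest summed levels of leukocyte markers (4329, against at most 3353 elsewhere), endothelial markers (3621 against 2431) and mural cell markers (4914 against 4202). These are sums of linear normalized intensity over the 9, 6 and 8 tested genes of each marker list. The same held for mast cell markers (233 against at most 149, 2 genes) and for the 1 glial marker measured (35.8 against 30.9). Member results are therefore given with and without this array. Replicates 1 to 3 of both fractions lay on 1 slide and replicate 4 of both on another.

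Of the 6 members measured, 0 passed an adjusted p of 0.05 in limma's moderated test with Benjamini-Hochberg adjustment over all genes. The background was 181 of 10724 genes, or 1.69% (1.13% higher and 0.559% lower in CD9high). Tested by probe, 0 of 8 member probes passed, against 1.22% of all probes. Without CD9low replicate 2, 0 members passed, against 2.14% of genes (1.47% higher, 0.671% lower). An unadjusted p under 0.05 was reached by 2 members, Ptgs2 and Ptger2, against 10.7% of all genes. The same 2 members showed no overlap between the fractions, which held for 7.69% of all genes (3.92% higher, 3.78% lower in CD9high). The measured members differed among themselves in direction, 3 above 0 and 3 below, with a median of -0.08 beside -0.04 for all genes tested.

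**Figure D1:**
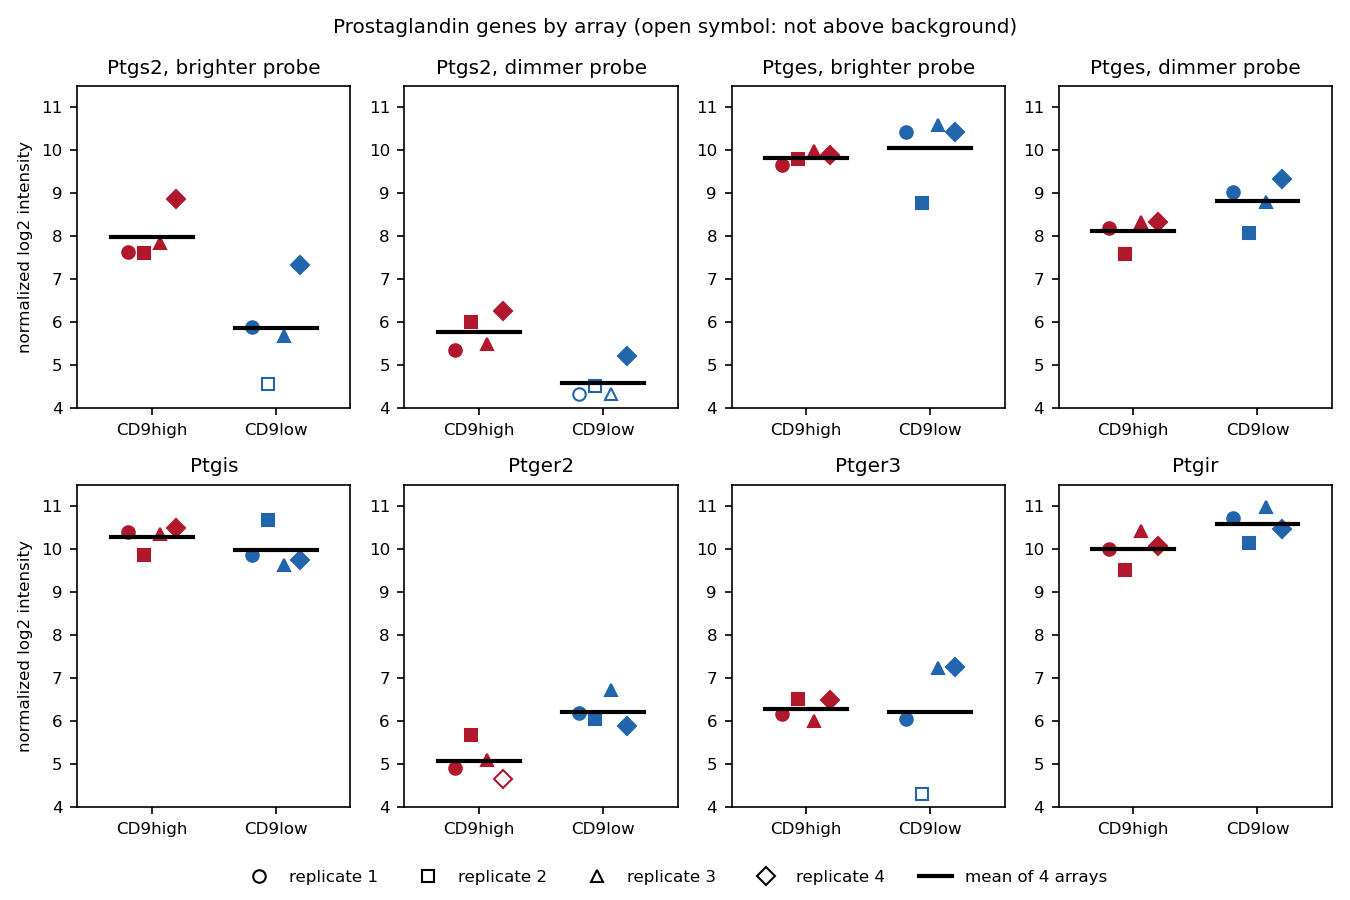
Normalized log2 intensity of the 8 kept probes on each array, by fraction, with a symbol for each replicate number and a bar at the mean of 4 arrays; open symbols are not above background. Ptgs2 is higher and Ptger2 lower on every CD9high array, and CD9low replicate 2 (square) lies away from the other CD9low arrays for Ptges, Ptgis and Ptger3.

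Ptgs2 encodes cyclooxygenase-2, the inducible enzyme that commits arachidonic acid to prostaglandins. It showed the largest difference of the 6 members, about 4-fold, although it missed the threshold with all 8 arrays and no block. Its start region is printed because Ptgs2 has the largest difference of the members and its start region is well studied. It is the RefSeq window of build GRCm38.p6 on the plus strand, chr1:150099781-150100080, which runs from 250 bases before to 50 bases after the annotated start. Capitals mark the motif matches.
Ptgs2 promoter: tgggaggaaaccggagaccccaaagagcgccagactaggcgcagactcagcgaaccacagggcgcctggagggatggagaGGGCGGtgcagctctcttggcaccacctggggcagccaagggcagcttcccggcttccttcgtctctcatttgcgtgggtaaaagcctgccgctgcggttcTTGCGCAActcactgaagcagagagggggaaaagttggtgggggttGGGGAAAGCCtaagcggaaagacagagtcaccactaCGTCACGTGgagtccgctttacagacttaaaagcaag
Positions are counted from 1 at the annotated start. The first match was the GC box GGGCGG at -170 to -165, which 35.7% of all 32851 RefSeq windows of this length held on either strand. The C/EBP palindrome TTGCGCAA lay at -69 to -62 and was found in 0.183% of all windows. An NF-kappaB core, GGG and CC with any 5 bases between, lay at -23 to -14 (50.8% of windows). The E-box CACGTG at 17 to 22 (7.15% of windows) overlapped by 2 bases the CRE half-site TGACG, which was read on the opposite strand at 14 to 18 (20.8% of windows). The TATA box TATAAA (13.6% of windows) was not in this window. Other forms of this motif, and bases more than 50 past the annotated start, were not searched. Matches describe the letters only; in mouse Ptgs2 the C/EBP and the overlapping CRE and E-box elements are known from reporter studies.

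On its brighter probe Ptgs2 read 7.63, 7.63, 7.85 and 8.87 on CD9high replicates 1 to 4. On the CD9low arrays it read 5.90, 4.57, 5.68 and 7.33. The fractions did not overlap, although CD9low replicate 4 lay close below the lowest CD9high arrays. Replicate 4 was the highest in both fractions. In deposited signal, which the authors had not normalized between arrays, the CD9high arrays read 142, 179, 248 and 590 and the CD9low arrays 40.7, 4.11, 42.8 and 150. The signal of CD9low replicate 2 was not above background. The difference was 2.13 (SE 0.52, n = 4 per fraction, adjusted p = 0.0827 in limma), or 4.36-fold. An exact two-sided permutation test of the 8 values gave p = 0.0286, the smallest that 4 against 4 arrays allow, among 6 members and 8 probes tested in this way.

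With the slide as a block the same difference of Ptgs2 had an SE of 0.33 and passed (adjusted p = 0.0168), in a fit that called 1.31% of all genes (0.923% higher in CD9high, 0.392% lower). On slide 1 alone, where 48 of 10724 genes were called, the difference was 2.32 (SE 0.38, n = 3 per fraction, adjusted p = 0.0474 in limma). On slide 2, with 1 array per fraction and no test, it was 1.54. Without CD9low replicate 2 it was 1.69 (SE 0.44, adjusted p = 0.100). Without CD9low replicate 4 it passed at 2.61 (SE 0.42, adjusted p = 0.0246), in a fit that called 76 of 10724 genes. With both the slide as a block and CD9low replicate 2 left out, a setting added after the data were seen, it was 1.80 (SE 0.20, adjusted p = 0.00279); that fit called 2.53% of all genes (1.75% higher, 0.774% lower). Of 18 alternative settings Ptgs2 passed in 4 and missed the threshold in 14, with adjusted p from 0.0168 to 0.275 over the 18; the highest came with the authors' normalized values, and with no filter on dim probes it was 0.265. In bulk RNA of sorted cells, fewer cells that express a gene and less RNA per cell cannot be told apart.

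On the dimmer Ptgs2 probe CD9high was again the higher fraction. This probe met the filter through its CD9high arrays alone, so that its direction adds no separate support. It read 5.36, 6.01, 5.51 and 6.26 on CD9high replicates 1 to 4, all above background. On CD9low it read 4.34, 4.53, 4.33 and 5.21, and only replicate 4 was above background there. Its difference was 1.18 (SE 0.29, adjusted p = 0.0999 over 18085 probes), and 1.18 (SE 0.24, adjusted p = 0.0550) with the slide as a block. It was 1.16 (SE 0.31, adjusted p = 0.124) without CD9low replicate 2. The lowest CD9high array lay just above the highest CD9low array. With 5 of 8 arrays above background it was the kept member probe nearest to the limit; the nearest left out was the second probe of Ptger3, above background on 2.

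Ptgs2 is also an immediate early gene, and tissue dissociation can induce such genes. Of 16 immediate early and stress genes measured, 0 passed the test in either direction, with a median difference of -0.11. The differences ran from -0.83 for Ier2 and -0.79 for Junb to 0.65 for Ier3 and Hspa1b, with Fos at -0.37 and Egr1 at -0.25. Without CD9low replicate 2, 0 passed and the median was -0.26. Their summed linear level ran from 25592 to 41814 in CD9high and from 28249 to 45470 in CD9low, and replicate 4 was the highest in both fractions. Ptgs2 was also highest on these 2 arrays, and the part of dissociation in its level was not tested. Among 14 measured genes that induce Ptgs2 or control the decay of its mRNA, 0 passed, with a median of -0.44 and 2 above 0. The nearest to the threshold were Egfr, a growth factor receptor (-0.88, SE 0.22, adjusted p = 0.0973), and Myd88, the adaptor of Toll-like and interleukin-1 receptors (-1.43, SE 0.42, adjusted p = 0.176). Cebpb and Cebpd, which encode factors of the C/EBP family, differed by -0.42 and -0.75 (adjusted p = 0.816 and 0.248).

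The genes whose pattern lay nearest to that of Ptgs2 were Sct, Serpinb6c and Adgrg2. Nearness was the root mean square difference over the 8 arrays after each gene was centred on its mean, 0.47, 0.48 and 0.50, where the median gene was at 1.39. These genes were chosen by likeness to Ptgs2 on the same arrays. Differences near that of Ptgs2 thus follow from the choice, and their adjusted p-values add no support. Sct, the gene of the hormone secretin, was higher in CD9high by 1.99 (SE 0.39, adjusted p = 0.0349). Serpinb6c, a serpin gene, differed by 2.07 (SE 0.30, adjusted p = 0.00869), with 1 of 4 CD9low arrays above background. Adgrg2, an adhesion G protein-coupled receptor gene, differed by 1.66 (SE 0.30, adjusted p = 0.0240).

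The terminal synthases did not pass the test, and their differences moved with single arrays. Ptges encodes the microsomal prostaglandin E synthase that is usually coupled to cyclooxygenase-2. Its brighter probe read 9.65, 9.80, 9.98 and 9.89 on CD9high replicates 1 to 4, and 10.43, 8.79, 10.60 and 10.43 on CD9low. All CD9low arrays but replicate 2 lay above every CD9high array. The difference was -0.23 (SE 0.38, 95% interval -1.06 to 0.60, adjusted p = 0.868). Leaving out CD9low replicate 2 gave -0.66 (SE 0.19, adjusted p = 0.158), whereas leaving out CD9low replicate 1, 3 or 4 gave -0.11, -0.055 and -0.11.

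The dimmer Ptges probe read 8.20, 7.60, 8.34 and 8.34 in CD9high. In CD9low it read 9.04, 8.08, 8.80 and 9.33. Here too CD9low replicate 2 was the lowest of its fraction, and the other CD9low arrays lay above all of CD9high. The difference was -0.70 (SE 0.31, adjusted p = 0.508 over all probes), and -0.94 (SE 0.26, adjusted p = 0.137) without CD9low replicate 2. Ptges and Ptgs2 thus had differences of opposite sign, and neither passed with all 8 arrays and no block.

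Ptgis encodes prostacyclin synthase, an enzyme best known from vessel walls. It read 10.41, 9.87, 10.36 and 10.49 on CD9high replicates 1 to 4. On CD9low it read 9.88, 10.70, 9.64 and 9.76. Replicate 2 stood out in both fractions, CD9high replicate 2 being the lowest of its fraction and CD9low replicate 2 the highest of all 8. The difference was 0.29 (SE 0.28, 95% interval -0.33 to 0.91, adjusted p = 0.764), and 0.52 (SE 0.22, adjusted p = 0.423) without CD9low replicate 2. It was 0.17 without CD9low replicate 3 and 0.43 without CD9high replicate 2. CD9low replicate 2 also had the highest endothelial and mural marker sums given above, and their part in its Ptgis level was not tested. Ptgds, which encodes the lipocalin-type prostaglandin D synthase, was above background on 1 array only, CD9low replicate 4, with deposited signals of -0.05 to 15.7.

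**Figure D2:**
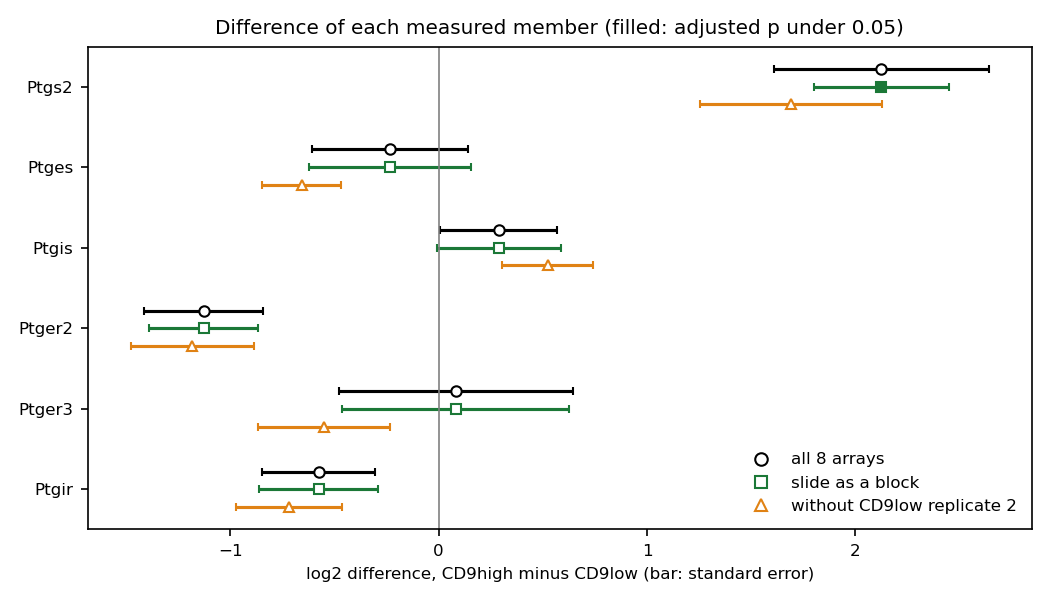
Log2 difference (CD9high minus CD9low, bar for the standard error) of the 6 measured members with all 8 arrays, with the slide as a block and without CD9low replicate 2. Only Ptgs2 with the slide as a block is past the threshold (filled), and Ptger3 changes sign without CD9low replicate 2.

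Among the receptors, Ptger2 had the largest difference. It encodes EP2, a receptor of prostaglandin E2 that raises cyclic AMP. It read 4.92, 5.68, 5.11 and 4.66 on CD9high replicates 1 to 4, where replicate 4 was not above background. On CD9low it read 6.20, 6.06, 6.73 and 5.89, all above background. The fractions did not overlap. The difference was -1.13 (SE 0.28, 95% interval -1.76 to -0.50, adjusted p = 0.0958 in limma), or 2.19-fold higher in CD9low, with an exact two-sided permutation p of 0.0286.

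Ptger2 stayed on the same side of the threshold with the slide as a block (adjusted p = 0.0834). On slide 1 alone the difference was -1.09 (SE 0.33, adjusted p = 0.323), and on slide 2 it was -1.23 with no test. Without CD9low replicate 2 it was -1.18 (SE 0.30, adjusted p = 0.0897). It passed when that array was left out and the slide was a block as well (-1.23, SE 0.25, adjusted p = 0.0404), where 2.53% of all genes passed. It also passed when both arrays numbered 2 were left out (-1.38, SE 0.26, adjusted p = 0.0266), where 2.52% did (1.77% higher, 0.746% lower). With those arrays left out it passed with the replicate number as a block too. These 3 settings were added after the data were seen, and Ptger2 passed in 0 of the 18 others. The second Ptger2 probe was above background on 1 array, CD9low replicate 3, the array where the kept probe was highest.

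Ptgir encodes the prostacyclin receptor, which raises cyclic AMP. It read 10.003, 9.53, 10.44 and 10.08 on CD9high replicates 1 to 4 and 10.73, 10.16, 10.99 and 10.48 on CD9low. The ranges overlapped, with CD9high replicate 2 the lowest of all 8 and CD9low replicate 3 the highest. The difference was -0.58 (SE 0.27, 95% interval -1.17 to 0.02, adjusted p = 0.490), and -0.72 (SE 0.25, adjusted p = 0.294) without CD9low replicate 2.

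Ptger3 encodes EP3, a prostaglandin E2 receptor that mainly lowers cyclic AMP and is known for its part in adipocytes. It read 6.16, 6.53, 6.02 and 6.49 on CD9high replicates 1 to 4. On CD9low it read 6.05, 4.32, 7.23 and 7.27, and replicate 2 was not above background. The CD9low arrays thus spanned almost 3 units and the CD9high arrays about 0.5. The difference was 0.08 (SE 0.56, 95% interval -1.16 to 1.32, adjusted p = 0.975), so that these arrays do not settle its direction. Without CD9low replicate 2 it turned to -0.55 (SE 0.32, adjusted p = 0.642).

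Ptger4, which encodes the receptor EP4, was not above background on any array with either of its 2 probes, whose detection p ran from 0.0694 to 0.907. Ptgfr, the gene of the prostaglandin F receptor, was above background on CD9low replicate 1 only with a deposited signal of 10.002. No comparison was made for these genes, and a probe below background does not show that the transcript is absent.

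The other genes of the pathway were read from lists of each step, and 3 of the 72 measured passed the test, against 1.69% of all genes. Over the 18 alternative settings between 1 and 4 passed. Of 12 measured genes that release or handle arachidonic acid, 1 was higher in CD9high, 0 were lower and the other 11 missed the threshold, the median being 0.15. The one that rose was Pla2g4a, which encodes the cytosolic phospholipase A2 that frees arachidonic acid after a calcium signal. It read 7.90, 7.86, 7.16 and 7.16 on CD9high replicates 1 to 4 and 5.92, 5.44, 5.57 and 5.18 on CD9low, above background on all 8. No arrays overlapped, and the gap between the fractions was over 1 unit. It rose by 1.99 (SE 0.27, adjusted p = 0.00540), or 3.97-fold, and passed in all 18 alternative settings (adjusted p 0.00305 to 0.0441). On slide 1 the difference was 2.00 and on slide 2 it was 1.98. It was 1.96 without CD9low replicate 2. Pla2g4b, a related phospholipase gene, differed by 0.94 (SE 0.22, adjusted p = 0.0734) with no overlap. Of its 4 CD9low arrays, 2 were above background. With the mean of its kept probes in place of the brightest the difference was 0.51 (adjusted p = 0.436 in limma). It passed in 1 of the 18 alternative settings (adjusted p 0.0499 to 0.726).

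Of 7 measured genes of prostaglandin transport and breakdown, 1 was higher in CD9high, 0 were lower and the other 6 missed the threshold, the median being 0.03. Slco2a1 encodes the transporter that takes prostaglandins up from outside the cell. It read 8.30, 7.73, 8.26 and 8.18 on CD9high replicates 1 to 4 and 5.13, 6.55, 6.43 and 5.13 on CD9low. The CD9low arrays formed a pair near 5.1 and a pair near 6.5, all below CD9high. Slco2a1 rose by 2.31 (SE 0.36, adjusted p = 0.0124), or 4.95-fold. Each of its other 2 kept probes passed as well, with differences of 2.53 and 2.26 (adjusted p = 0.00221 and 0.0205 over all probes). The latter probe was above background on 2 of 4 CD9low arrays. A further Slco2a1 probe was not kept. It was above background on 2 CD9high arrays and 1 CD9low array and differed by 0.30.

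The Slco2a1 call was lost in 6 of 18 alternatives. These were the authors' normalized values (adjusted p = 0.0649), no filter on dim probes (0.0509), slide 1 alone (2.06, 0.104), the replicate number as a block, and leaving out CD9high replicate 1 (0.0608) or CD9high replicate 3 (0.0503). It held, at 2.55, without CD9low replicate 2 (adjusted p = 0.00416). On slide 2 it was 3.05. Hpgd, which encodes the enzyme that inactivates prostaglandins inside the cell, differed by 0.62 (adjusted p = 0.581), and Slco3a1, a related transporter gene, by 0.48 (SE 0.27, adjusted p = 0.575).

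**Figure D3:**
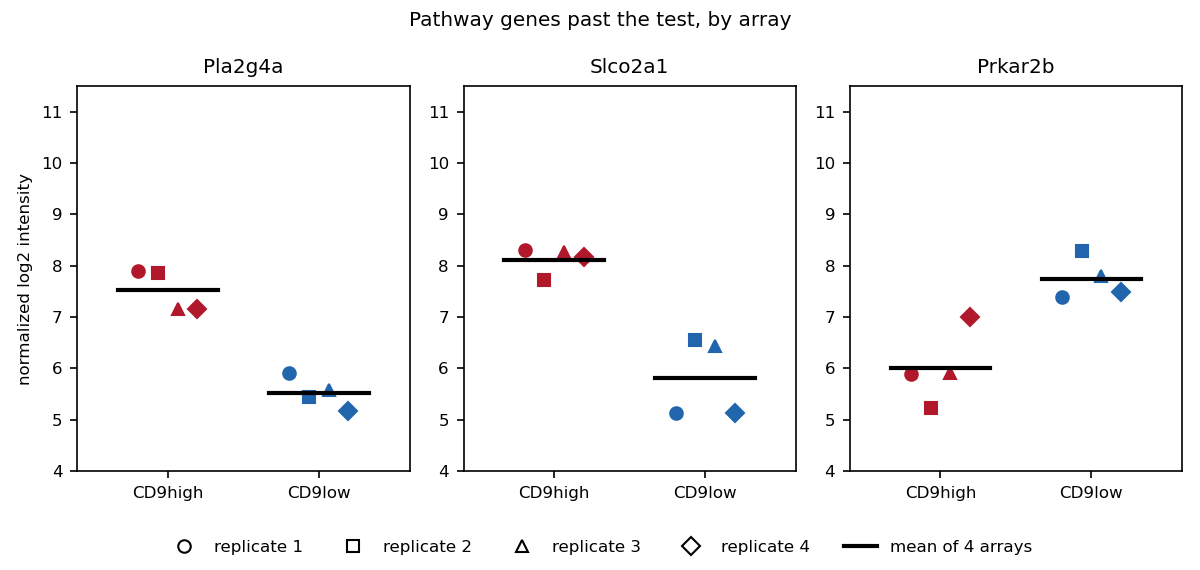
Normalized log2 intensity of Pla2g4a, Slco2a1 and Prkar2b on each array, by fraction, with a symbol for each replicate number and a bar at the mean of 4 arrays. No CD9high array overlaps a CD9low array for any of the 3 genes, and CD9high replicate 4 comes nearest for Prkar2b.

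Of 29 measured genes of G protein and cyclic AMP signalling, through which the receptors act, 0 were higher, 1 was lower and the other 28 missed the threshold, the median being -0.04. Prkar2b encodes a regulatory subunit of cyclic AMP-dependent protein kinase that is abundant in adipocytes. It read 5.89, 5.22, 5.92 and 7.01 on CD9high replicates 1 to 4 and 7.39, 8.28, 7.81 and 7.50 on CD9low. It fell by 1.73 (SE 0.37, adjusted p = 0.0460), or 3.32-fold, but the call was lost in 13 of 18 alternatives (adjusted p 0.0162 to 0.153 over the 18). Among them were the slide as a block (0.0572) and leaving out any 1 of 7 arrays, each but CD9high replicate 4; without CD9low replicate 2 it was -1.55 (adjusted p = 0.0686). On slide 1 it was -2.15 (adjusted p = 0.0444) and on slide 2 -0.49. A second Prkar2b probe, above background on 1 CD9low array only, was not kept and differed by -0.15. Adcy7, an adenylyl cyclase gene, differed by 1.19 (SE 0.28, adjusted p = 0.0693) with no overlap. The Adcy7 difference was 1.52 on slide 1 and 0.23 on slide 2. Of the other measured cyclase genes, Adcy9 differed by 0.53 (adjusted p = 0.644). Adcy3, Adcy4 and Adcy6 differed by -0.41, -0.71 and -1.05 (adjusted p = 0.704, 0.501 and 0.0995).

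The remaining steps held 0 calls. Of 6 other prostanoid synthase genes, 4 were above 0, with a median of 0.34. Cbr1, a carbonyl reductase gene, differed by 0.60 and Prxl2b, a prostaglandin F synthase gene, by 0.39 (adjusted p = 0.546 and 0.627). Of 2 other genes listed with the receptors, Tbxa2r encodes the thromboxane receptor. It differed by 0.79 (SE 0.25, adjusted p = 0.226) with no overlap. Above background were all 4 CD9high arrays but only 1 of 4 CD9low arrays, so that this probe met the filter through CD9high alone. Ptgfrn, which encodes a protein that associates with the prostaglandin F receptor, differed by 0.05. The 2 measured leukotriene genes were Alox5ap and Ltc4s, which serve leukotriene synthesis in leukocytes, and they differed by -1.23 and -0.44 (adjusted p = 0.590 and 0.790). Their summed linear level was 500 on CD9low replicate 2 and at most 81.9 on the other 7 arrays, and without that array the differences were -0.43 and 0.13.

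**Figure D4:**
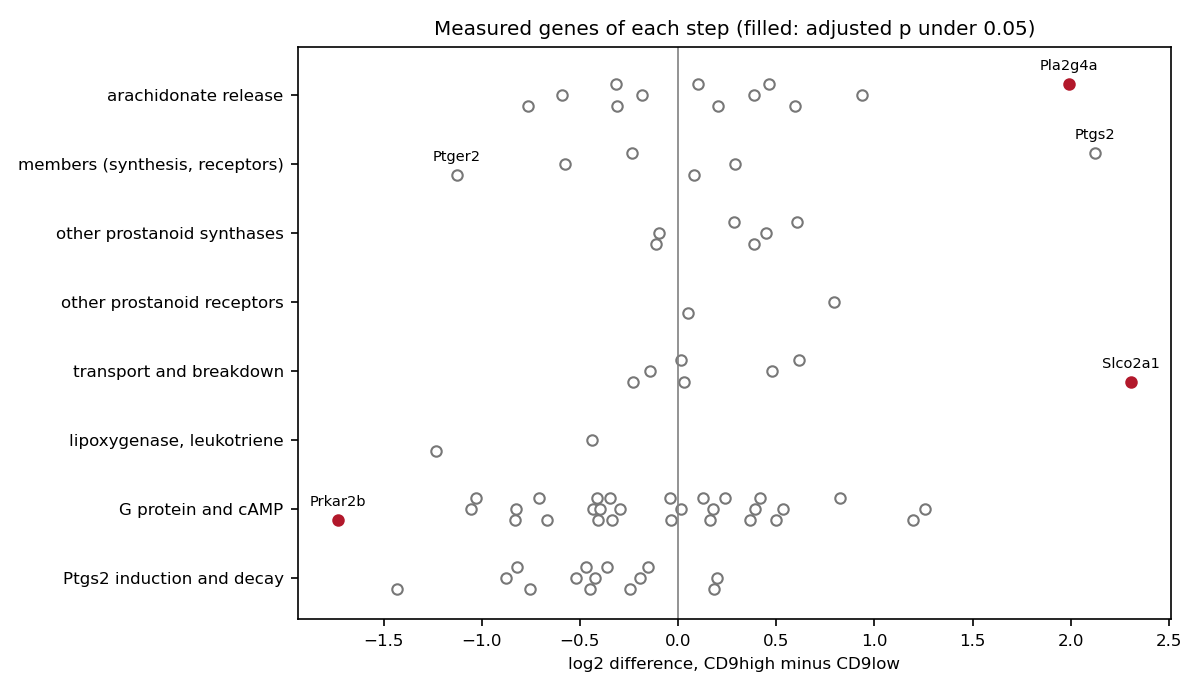
Log2 difference (CD9high minus CD9low) of every measured gene of each step, 1 point per gene, with genes past an adjusted p of 0.05 filled. Pla2g4a and Slco2a1 lie at about 2 and 2.3 beside the unfilled Ptgs2, and Prkar2b lies at -1.73.

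Across the steps, the genes with the largest positive differences were thus Pla2g4a (1.99), Ptgs2 (2.13) and Slco2a1 (2.31), of which Ptgs2 passed only in some settings. The part that other cells play in these differences was not tested. Of 9 leukocyte, 6 endothelial, 8 mural and 4 mesothelial markers measured, 0 passed the test in either direction, with medians of -0.06, -0.28, -0.33 and 0.27. The same count of 0 held for 2 mast cell, 4 adipocyte and 1 glial marker. The mast cell median was 0.15, with 1 of the 2 genes above 0, and 0.59 without CD9low replicate 2. Mast cell sums ran from 106 to 149 in CD9high. On CD9low replicates 1, 3 and 4 they were 80.7, 51.2 and 81.6, against 233 on replicate 2. The 4 mesothelial markers measured, of 11 listed, all lay above 0: Gpm6a at 0.86, Upk3b at 0.48, Krt8 at 0.06 and Msln at 0.04. Their sums ran from 277 to 557 in CD9high and from 189 to 351 in CD9low, and 2 others, Upk1b and Krt19, were not above background on any array. With CD9low replicate 2 left out, 0 leukocyte, endothelial, mural and mesothelial markers passed, and the medians were 0.13, -0.13, -0.26 and 0.33. Of 9 measured progenitor markers, 0 passed, with a median of -0.05.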

How the data were processed

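RNA of 8 sorted progenitor samples was amplified and hybridised to Illumina mouse bead arrays, per the labels' protocols. The deposited signal intensity values and their detection p-values, 1 pair of columns per array per the file headers, came from GenomeStudio according to the submitters' processing notes, which name no version. The intensity values, as deposited, had a background subtracted and were not normalized between arrays (medians 5.03 to 10.5). The other deposited table, also of intensity values, kept the rank order within each array, with nearly equal medians (9.07 to 9.20). It was read as linear values that the authors had normalized between arrays, by a method not stated, and used as an alternative only.

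Samples were grouped by title. Another label field names high CD9 expression for all samples, and the series text gives the same gate for both fractions. Probes were named by the platform annotation: 34885 of 45281 had 1 gene symbol, 18 several and 10378 none. Probe sequences were not checked for near-identical genes.

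In limma 3.58.1 (R 4.3.3), neqc used the detection p-values to infer negative controls, added an offset of 16, quantile normalized and took log2, which compresses differences of dim probes. Probes above background (detection p under 0.05) on at least 4 of 8 arrays were kept, and the brightest kept probe stood for a gene. The fractions were compared by lmFit and eBayes without a block, adjusted by Benjamini-Hochberg over 10724 genes; other probes of a gene were read from the same test over 18085 probes. The procedure was tested on simulated data with independent normal noise for each gene and array. That simulation held no outlying array and no slide effect, so that it does not cover these features. The number of arrays limits precision.

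The members, gene lists, tests and alternatives were chosen with earlier results of these data known. Named are all members, Cd9 and the gate genes, in each pathway list every gene past the test and the 2 with the smallest p, and the 3 genes nearest to the member with the smallest p. Other list genes were named after their values were seen (Hpgd, Cebpb, Cebpd, Adcy3, Adcy4, Adcy6, Adcy9 and the immediate early and mesothelial genes). RefSeq's table (GRCm38.p6) held all 10 member symbols, and its promoter table held 9.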

Additional observations from a re-analysis of the deposited data

Results flagged for a closer look

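Of 54 sets of 4 arrays examined (the kept member probes and the named genes, each fraction apart), 1 had an array far from the other 3, where chance alone gives about 1 in 20. It was the brighter Ptges probe in CD9low, where replicate 2 read 8.79 and the nearest other array 10.43. The same array stood apart across all genes.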

How the results depend on the processing

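The 18 alternative settings called between 48 and 230 genes, against 181. The count was 60 with the authors' normalized values, 48 on slide 1 alone, 76 with the replicate block, and 54 to 230 when single arrays were left out (54 without CD9high replicate 1, 230 without CD9low replicate 2). Members called higher numbered 1 in place of 0, always Ptgs2, in 4 settings (0 to 1 over single arrays left out). These were the slide as a block, with 141 of 10724 genes called, and slide 1 alone, with 48. The others were the replicate block (76 genes, Ptgs2 at adjusted p = 0.0400) and leaving out CD9low replicate 4 (76 genes). Members called lower stayed at 0 in all 18. Pathway genes called fell from 3 to 1 with the authors' normalized values or the replicate block (under the block Slco2a1 was at adjusted p = 0.0627 and Prkar2b at 0.153), and ran from 1 to 4 over single arrays left out. Cd9 missed the threshold with the authors' normalized values (6.09, adjusted p = 0.0634). Signs turned for Ptger3 with an offset of 50 (-0.050) and over single arrays (-0.55 to 0.43), for Ptgfrn over single arrays (-0.18 to 0.32) and for Ltc4s over single arrays (-0.68 to 0.13). Where every array of a fraction had to be above background, Alox5ap and Ltc4s were not tested. Another 3 settings were added after the data were seen. Arrays numbered 1, 3 and 4 alone gave 1 member lower (Ptger2) without a block, among 270 genes (2.52%). With the replicate block they gave 1 member higher (Ptgs2) and 1 lower (Ptger2), among 411 genes called of 10724. Leaving out CD9low replicate 2 with the slide as a block gave 1 higher and 1 lower, among 271 genes (2.53%). In these 3 settings Ptger3 stood at -0.62, -0.62 and -0.51 and Ltc4s at 0.091, 0.091 and 0.16. For other changes of sign or call the cause was not tested.

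Arrays of the 2 fractions share numbers in their titles, but no label says what a number marks. The deviations of same-numbered arrays from their fraction means correlated at 0.223, -0.0996, 0.183 and 0.159 for numbers 1 to 4, and 5 of 8 arrays correlated best with their own number, so that the numbers were not treated as pairs, although 3 of the 4 correlations are a hint from the data towards pairing. The dim probes of Ptger2, Ptgs2 (second probe) and Tbxa2r lay near background, which limits how well their differences can be sized.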

Other observations

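Of 9 genes listed for epididymal epithelium, the organ beside this fat depot, only Lcn8, an epididymal lipocalin gene, was measured; it was singled out after its values were seen. Its linear normalized level was 331 in CD9high replicate 1 and 460 in CD9low replicate 1, and 20.9 to 35.4 on the other 6 arrays. The difference between fractions was -0.19 (adjusted p = 0.968). Ptgds, also known from the epididymis, was not above background on either array of that number.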
